A study of Mus musculus with 8 samples.

Results

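The genes described here are *Fkbp5* and 9 chaperones and cochaperones that fold steroid receptors, namely *Fkbp4*, *Hsp90aa1*, *Hsp90ab1*, *Ptges3*, *Stip1*, *Hspa8*, *Bag1*, *Dnajb1* and *Hsph1*. They were taken by name and matched by symbol to Ensembl identifiers in the GENCODE annotation of the mouse genome build GRCm38. All 10 were found among the 50686 genes of the count table, and all 10 were among the 16018 genes that passed the filter on low counts, so no gene was left out. RNA-seq was performed on the ventral hippocampus, taken from male mice of the C57BL/6J strain (written C57B6/J in the labels) that were 8 weeks old. One group of 4 mice was injected with vehicle and the other group of 4 mice with 3 mg/kg corticosterone, the main glucocorticoid of rodents, and both were killed 3 h after the morning injection. The labels and the methods name no transgene. Replicates 1 to 4 are the vehicle libraries and replicates 5 to 8 those of corticosterone, each from 1 mouse.

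Steroid receptors such as the glucocorticoid receptor (GR) and its relative, the mineralocorticoid receptor (MR), need chaperones before they can bind hormone. Hsp70, helped by J-domain proteins such as that of *Dnajb1*, first takes up the receptor. The adaptor protein of *Stip1* (Hop) hands it on to Hsp90, the protein of *Ptges3* (p23) stabilises the mature complex, and one of the immunophilins FKBP51 (*Fkbp5*) and FKBP52 (*Fkbp4*) sits on Hsp90 in that complex. FKBP51 lowers the affinity of GR for hormone and FKBP52 favours its transport to the nucleus. *Fkbp5* is itself a well-known target gene of GR, so that the hormone raises an inhibitor of its own receptor.

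Values are normalized counts, that is the deposited read counts scaled between libraries with the TMM method and brought to the mean library size. Differences are log2 fold changes of corticosterone against vehicle with their standard error (SE) as edgeR's quasi-likelihood test gave them, and p values were adjusted with the Benjamini-Hochberg method over all genes tested. The threshold was an adjusted p of 0.05. Between 17492159 and 19931987 reads per library were counted on genes, and the lowest count of any of the 10 genes in any library was 798, for *Ptges3*. The libraries differed in a way that the groups only partly shared. The trend of the counts with the GC content of the transcript was positive in vehicle replicates 1, 2 and 3 and corticosterone replicate 5 (0.0595 to 0.199 on the log2 scale per 10 percentage points of GC) and negative in vehicle replicate 4 and corticosterone replicates 6, 7 and 8 (-0.183 to -0.0840). The share of reads that fell on more than 1 gene was 1.40% to 1.67% after vehicle and 1.25% to 1.48% after corticosterone, and the share of reads aligned to several places was 0.0699% to 0.111% and 0.0420% to 0.0536%, with no overlap between the groups. Results are therefore also given after removing, library by library, the trend with GC content and transcript length.

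The marker lists of neurons and of dentate and CA field cells were detected in every library. The summed markers of microglia (5 of 5 detected in every library) were 5030 to 5095 normalized counts after vehicle and 3507 to 4878 after corticosterone, and those of endothelial cells (5 of 5) were 2054 to 2200 and 1784 to 1988. Both sums were lower in all 4 corticosterone libraries, and 0 of 5 microglia and 0 of 5 endothelial markers passed the threshold. Among single genes tested, 3.66% did not overlap between the groups. The sums are not given with the trend removed, and their part in the results was not tested. The sums of neuronal, dentate and CA field, astrocyte, oligodendrocyte, choroid plexus and erythrocyte markers overlapped between the groups. In bulk tissue, fewer cells of a type and less RNA per cell cannot be told apart.

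In these mice, *Fkbp5* mRNA was 1.69-fold higher (95% interval 1.46 to 1.95) 3 h after corticosterone, and it was the one gene of the 10 that passed the threshold. The other 9 genes did not pass it, and their log2 fold changes ran from -0.11 (*Fkbp4*) to 0.19 (*Hsp90aa1*). Over all genes tested, 0.00624% passed the threshold in edgeR, which is 1 gene, and *Fkbp5* is that gene. In DESeq2, the tool the authors used, 64 genes (0.406%) passed it, so the count depends on the tool. In edgeR, *Fkbp5* had the smallest p of all genes tested but not the largest change, since 205 genes (1.28%) had a larger absolute log2 fold change. None of the 1560 genes with a higher mean count than *Fkbp5* had a larger change.

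The values of *Fkbp5* (ENSMUSG00000024222, chr17:28399094-28517527, minus strand) were 2373, 1765, 1983 and 1709 normalized counts in vehicle replicates 1 to 4 and 3186, 3511, 3364 and 3177 in corticosterone replicates 5 to 8. All 4 corticosterone libraries were above all 4 vehicle libraries, and vehicle replicate 1 was the highest of its group. Such a lack of overlap was found in 3.66% of all genes tested, and in 1.99% with the corticosterone libraries the higher ones. The mean rose from 1957 ± 301 (SD, n = 4 mice) to 3310 ± 159 (SD, n = 4). The log2 fold change was 0.76 (SE 0.097, 95% interval 0.55 to 0.97, adjusted p = 0.0481 from the quasi-likelihood test of edgeR). The exact permutation test over the 70 assignments of 4 and 4 libraries gave p = 0.0286 (two-sided), the smallest value this design allows. The relative spread between mice was larger after vehicle (15.4% of the mean) than after corticosterone (4.81%), against a median of 7.21% and 7.60% in genes of a like level.

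The adjusted p of *Fkbp5* was close to the threshold, and the call depended on single libraries. It was lost in edgeR without vehicle replicate 2 (adjusted p = 0.182), vehicle replicate 3 (0.331), vehicle replicate 4 (0.142), or corticosterone replicates 6 (0.291), 7 (0.296) or 8 (0.191), with log2 fold changes of 0.69 to 0.77. It was kept without vehicle replicate 1, at 0.86, and without corticosterone replicate 5, at 0.78. With the GC and length trend removed, the log2 fold change of *Fkbp5* was 0.78 (SE 0.087, adjusted p = 0.00401 from edgeR, where 0.137% of all genes tested passed), and it passed the threshold whichever library was left out, with adjusted p values of 1.47e-05 to 0.0401. Within the 4 libraries with a positive GC trend, *Fkbp5* was 3186 in the corticosterone library and 1765 to 2373 in the 3 vehicle libraries. Within the 4 libraries with a negative trend, it was 1709 in the vehicle library and 3177 to 3511 in the 3 corticosterone libraries.

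**Figure D1:**
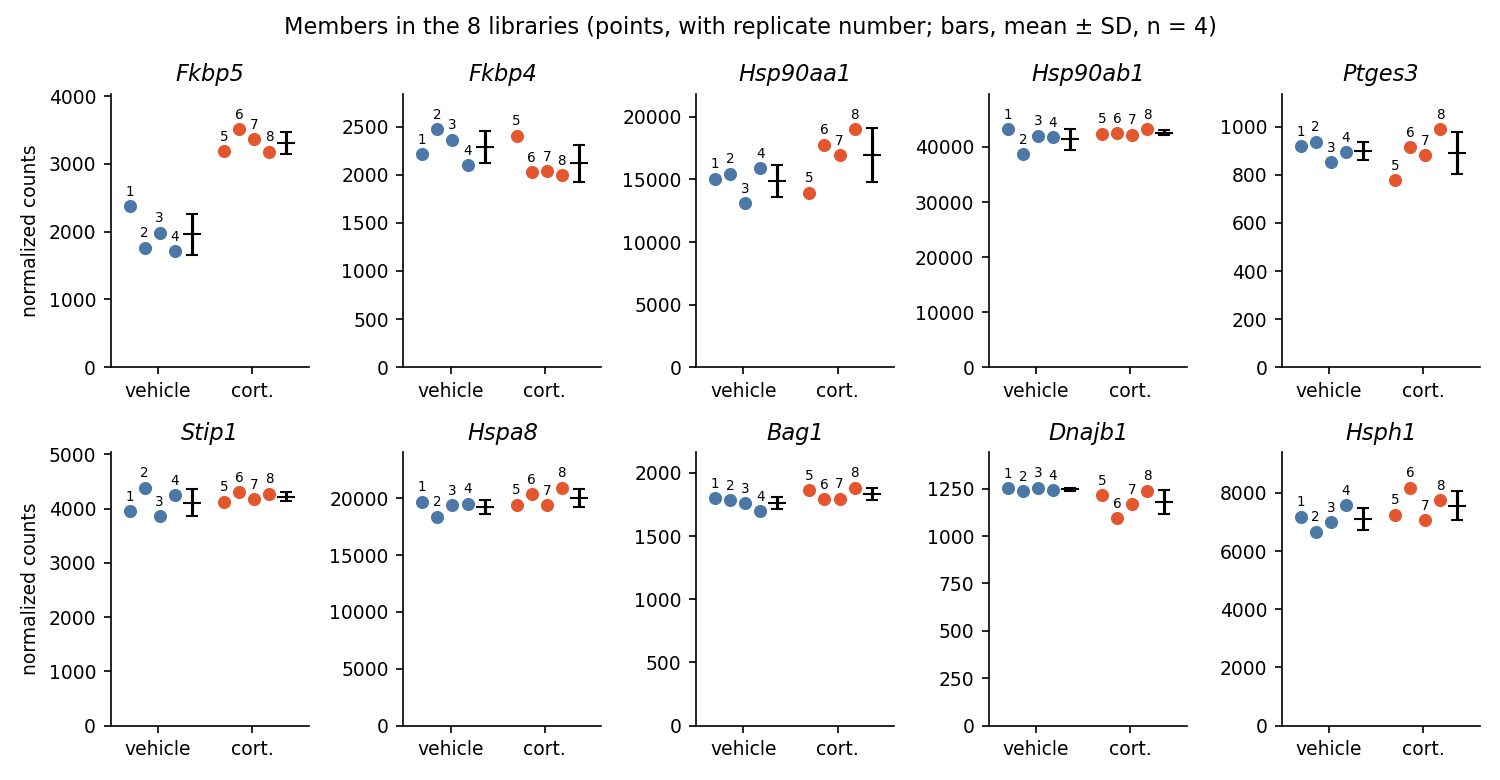
Normalized counts (y axes from 0) of the 10 genes in the vehicle (blue) and corticosterone (cort., red) libraries, with the replicate number above each point and the mean ± SD of 4 mice beside them. The 4 corticosterone libraries lie above the 4 vehicle libraries for *Fkbp5*, and the groups overlap for the other 9 genes.

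To show the sequence around the start of the gene that rose next to that of its closest relative among the 10, the promoter windows of *Fkbp5* and *Fkbp4* are printed here, with that of *Hsph1*, a heat shock gene. The windows come from RefSeq (GRCm38.p6) and run from 250 bases before to 50 bases after an annotated start, 5′ to 3′ on the minus strand of each gene. They lie at chr17:28486100-28486399 for *Fkbp5*, which is inside the span of the gene in GENCODE, at chr6:128438607-128438906 for *Fkbp4* and at chr5:149636287-149636586 for *Hsph1*. Capitals mark CCAAT or its reverse complement ATTGG in the windows of *Fkbp5* and *Fkbp4*, and the heat shock element letters GAANNTTC or TTCNNGAA in the windows of *Fkbp4* and *Hsph1*.
Fkbp5: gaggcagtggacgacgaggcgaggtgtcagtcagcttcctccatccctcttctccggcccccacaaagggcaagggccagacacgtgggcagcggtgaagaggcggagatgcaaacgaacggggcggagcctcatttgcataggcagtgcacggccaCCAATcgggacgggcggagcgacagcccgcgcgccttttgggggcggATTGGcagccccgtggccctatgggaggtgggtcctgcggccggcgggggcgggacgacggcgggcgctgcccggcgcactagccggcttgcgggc
Fkbp4: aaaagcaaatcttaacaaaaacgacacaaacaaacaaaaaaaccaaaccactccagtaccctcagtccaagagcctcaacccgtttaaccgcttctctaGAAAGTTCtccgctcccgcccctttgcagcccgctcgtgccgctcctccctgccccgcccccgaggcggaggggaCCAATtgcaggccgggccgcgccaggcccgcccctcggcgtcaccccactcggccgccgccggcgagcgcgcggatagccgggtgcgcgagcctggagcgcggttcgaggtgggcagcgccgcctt
Hsph1: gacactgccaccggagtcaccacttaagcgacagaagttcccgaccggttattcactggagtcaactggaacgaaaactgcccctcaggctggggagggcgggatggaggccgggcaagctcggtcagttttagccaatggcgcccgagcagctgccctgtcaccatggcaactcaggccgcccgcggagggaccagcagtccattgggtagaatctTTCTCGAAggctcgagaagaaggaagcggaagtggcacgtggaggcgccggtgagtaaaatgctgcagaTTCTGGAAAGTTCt

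The window table held 7 of the 10 genes, without *Hsp90aa1*, *Hsp90ab1* and *Hspa8*. Motifs were searched on both strands. The window of *Fkbp5* had a CCAAT 93 bases and an ATTGG 46 bases before the start, and CCAAT in either orientation was found in 5 of the 7 genes (*Fkbp5*, *Fkbp4*, *Stip1*, *Dnajb1* and *Hsph1*) and in 37.4% of all 32851 windows of this length. Joined heat shock units (GAA, TTC and GAA, each 2 bases apart, or TTC, GAA and TTC likewise) were found in *Hsph1* alone. They lay 37 bases after the start in the printed window and 16 bases after the other annotated start of the gene. Of all windows, 0.603% held them. The shorter GAANNTTC, which the joined form contains, was found in *Fkbp4* and *Hsph1* and in 7.86% of all windows, and TTCNNGAA, also contained in it, in *Hsph1* and in 8.52%. TATAAA or TTTATA was found in *Stip1* and in 13.6% of all windows. The full palindrome of a glucocorticoid response element (AGAACA and its reverse complement TGTTCT, 3 bases apart) was in none of the 7 genes and in 0.00913% of all windows. These matches are letters in a window of 300 bases and say nothing of binding.

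*Fkbp4* (ENSMUSG00000030357, chr6:128429735-128438677, minus strand) encodes FKBP52, the immunophilin that competes with FKBP51 for Hsp90. Its values were 2215, 2473, 2363 and 2102 normalized counts in vehicle replicates 1 to 4 and 2405, 2028, 2038 and 1997 in corticosterone replicates 5 to 8. Corticosterone replicates 6, 7 and 8 were below every vehicle library and corticosterone replicate 5 was among the highest of all, so that the groups overlapped. Its log2 fold change was -0.11 (SE 0.080, 95% interval -0.29 to 0.06, adjusted p = 0.620 from edgeR). It was -0.18 without corticosterone replicate 5 (adjusted p = 0.0974) and -0.07 without vehicle replicate 2 (adjusted p = 0.838). With the GC and length trend removed it was -0.03.

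The ratio of *Fkbp5* to *Fkbp4* counts, which does not depend on the scaling between libraries, was 1.07, 0.714, 0.839 and 0.813 in vehicle replicates 1 to 4 and 1.32, 1.73, 1.65 and 1.59 in corticosterone replicates 5 to 8. The groups did not overlap. These counts are not divided by gene length, so a ratio above or below 1 does not say which gene had the higher level. Only the change of the ratio between the groups can be read. Per kilobase of merged exons, *Fkbp5* was at 10.8 and *Fkbp4* at 42.7 after vehicle, and at 18.3 and 39.5 after corticosterone. Per kilobase of the longest transcript they were at 26.5 and 44.6, and at 44.8 and 41.3. The geometric mean of the ratio was 1.84-fold higher after corticosterone, a log2 difference of 0.88 (exact permutation test, two-sided, p = 0.0286, and 0.0571 adjusted over the 4 ratios compared). With the trend removed, the difference was 0.82 (exact permutation p = 0.0286, adjusted p = 0.114). With 4 against 4 mice the permutation test cannot go below 0.0286.

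Of the cytosolic Hsp90 genes, both among the 10, *Hsp90aa1*, which encodes the stress-inducible form, varied more than *Hsp90ab1*. *Hsp90aa1* (ENSMUSG00000021270, chr12:110690605-110702728, minus strand) had 15073, 15462, 13086 and 15910 normalized counts in vehicle replicates 1 to 4 and 13947, 17773, 16957 and 19017 in corticosterone replicates 5 to 8. Corticosterone replicates 6, 7 and 8 were the 3 highest libraries and corticosterone replicate 5 lay among the vehicle libraries. For *Hsp90aa1*, the log2 fold change was 0.19 (SE 0.096, 95% interval -0.02 to 0.39, adjusted p = 0.546 from edgeR), and 0.096 with the GC and length trend removed. It was 0.13 without vehicle replicate 3 and 0.12 without corticosterone replicate 8. Without corticosterone replicate 5 it was 0.27 and passed the threshold (adjusted p = 0.0377 from edgeR), in a fit in which 10.2% of all genes tested passed it. With the GC and length trend also removed, it was 0.13 without that replicate (adjusted p = 0.239).

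The constitutive form, *Hsp90ab1* (ENSMUSG00000023944, chr17:45567775-45573271, minus strand), had 38695 to 43208 normalized counts after vehicle and 42241 to 43226 after corticosterone. The corticosterone libraries lay close together and inside or just above the vehicle range, and the log2 fold change was 0.04 (SE 0.062, 95% interval -0.09 to 0.17, adjusted p = 0.808 from edgeR). The ratio of *Hsp90aa1* to *Hsp90ab1* was 0.311 to 0.400 after vehicle and 0.329 to 0.440 after corticosterone, a log2 difference of 0.14 that did not pass the exact permutation test (p = 0.286, and 0.381 adjusted over the 4 ratios). This difference moved with single libraries, to 0.071 without vehicle replicate 3 and 0.19 without vehicle replicate 2. With the GC and length trend removed it was 0.055.

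**Figure D2:**
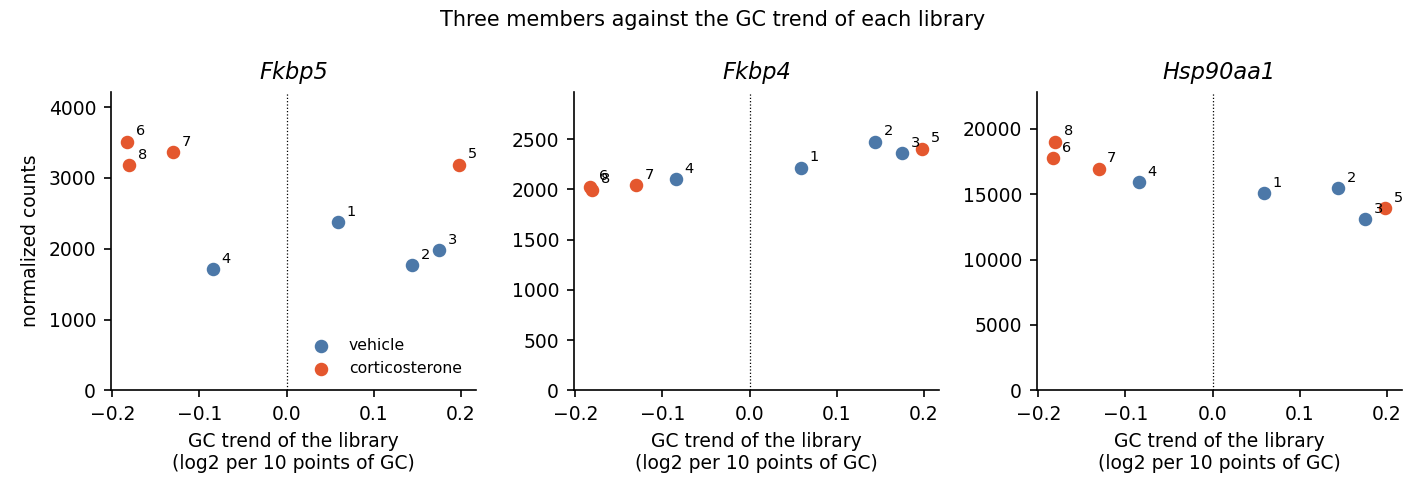
Normalized counts (y axes from 0) of *Fkbp5*, *Fkbp4* and *Hsp90aa1* against the GC trend of each library (x axis, log2 per 10 percentage points of GC), with vehicle libraries in blue, corticosterone libraries in red and the replicate number beside each point. For *Fkbp5* the corticosterone libraries are at 3177 to 3511 on both sides of 0, and for *Fkbp4* and *Hsp90aa1* the libraries left and right of 0 do not overlap.

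Values of 2 of the 10 genes, *Fkbp4* and *Hsp90aa1*, did not overlap between the libraries with a positive and those with a negative GC trend. This was so for 28.4% of all genes tested, so the count is not particular to these genes. *Fkbp4* had 2215 to 2473 normalized counts in the 4 libraries with a positive trend and 1997 to 2102 in the 4 with a negative trend, and *Hsp90aa1* had 13086 to 15462 and 15910 to 19017. Within the positive side, the corticosterone library differed from the vehicle mean by 0.03 for *Fkbp4* and by -0.06 for *Hsp90aa1* on the log2 scale, and within the negative side the differences were -0.06 and 0.17. Each side holds 1 library of one of the groups, so these differences have no test.

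Neither of the other cochaperones of Hsp90 among the 10 genes passed the threshold. *Ptges3* (ENSMUSG00000071072, chr10:128058954-128077272, plus strand), which encodes p23, had 852 to 938 normalized counts in the vehicle libraries and 778, 915, 883 and 990 in corticosterone replicates 5 to 8. Both the lowest and the highest library of the 8 were from corticosterone-treated mice. The log2 fold change was -0.02 (SE 0.083, 95% interval -0.19 to 0.16, adjusted p = 0.950 from edgeR), and -0.12 with the trend removed (95% interval -0.24 to 0.00). A processed copy named *Ptges3-ps* is also in the count table, and reads shared by both could have been assigned to either or left out.

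*Stip1* (ENSMUSG00000024966, chr19:7020702-7039967, minus strand), which encodes Hop, the adaptor between Hsp70 and Hsp90, had 3857 to 4385 normalized counts after vehicle and 4127 to 4302 after corticosterone. All 4 corticosterone libraries lay within the vehicle range. *Stip1* had a log2 fold change of 0.04 (SE 0.065, 95% interval -0.10 to 0.18, adjusted p = 0.82898 from edgeR).

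Of the Hsp70 system, *Hspa8* (ENSMUSG00000015656, chr9:40800984-40810087, plus strand) encodes the constitutive Hsc70. It had 18389 to 19696 normalized counts after vehicle and 19390 to 20933 after corticosterone, with corticosterone replicates 6 and 8 above the vehicle range. The log2 fold change of *Hspa8* was 0.06 (SE 0.061, 95% interval -0.07 to 0.19, adjusted p = 0.723 from edgeR) and -0.01 with the trend removed. The small nucleolar RNAs *Snord14c*, *Snord14d* and *Snord14e* lie on the same strand and share 2.0% to 2.09% of the exon bases of *Hspa8* each. The exons of the other 9 genes overlapped no exon of another gene.

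*Bag1* (ENSMUSG00000028416, chr4:40936398-40948294, minus strand), a nucleotide exchange factor of Hsp70 that also binds GR, had 1798, 1785, 1760 and 1696 normalized counts in vehicle replicates 1 to 4 and 1861, 1792, 1796 and 1882 in corticosterone replicates 5 to 8. Corticosterone replicates 5 and 8 were above all vehicle libraries. *Bag1* had a log2 fold change of 0.06 (SE 0.061, 95% interval -0.07 to 0.19, adjusted p = 0.716 from edgeR). With the trend removed it was 0.13 (95% interval 0.0087 to 0.25, adjusted p = 0.482 from edgeR).

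*Dnajb1* (ENSMUSG00000005483, chr8:83608193-83612653, plus strand) encodes Hsp40, the J-domain protein that stimulates the ATPase of Hsp70. Its values were 1253, 1235, 1255 and 1242 normalized counts in vehicle replicates 1 to 4 and 1215, 1095, 1169 and 1239 in corticosterone replicates 5 to 8. The 4 vehicle libraries were nearly equal, with an SD of 0.755% of the mean, below the 2.81% that counting error alone gives at this depth, and 3 of the 4 corticosterone libraries were below them. Between the groups, the log2 fold change was -0.08 (SE 0.066, 95% interval -0.22 to 0.06, adjusted p = 0.653 from edgeR), and the exact permutation test on the same values gave p = 0.0571. With the trend removed, the log2 fold change was -0.05 and the exact permutation p was 0.343.

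The ratio of *Dnajb1* to *Hspa8* was 0.0637 to 0.0673 after vehicle and 0.0538 to 0.0626 after corticosterone. This ratio did not overlap between the groups and was 0.909 times the vehicle value after corticosterone (log2 difference -0.14, exact permutation test, two-sided, p = 0.0286, and 0.0571 adjusted over the 4 ratios). With the GC and length trend removed, the groups overlapped and the difference was -0.04 (exact permutation p = 0.543).

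*Hsph1* (ENSMUSG00000029657, chr5:149614287-149636376, minus strand) encodes Hsp105, an Hsp110 protein that acts as an exchange factor of Hsp70. It had 7183, 6665, 6988 and 7573 normalized counts in vehicle replicates 1 to 4 and 7256, 8177, 7061 and 7740 in corticosterone replicates 5 to 8. Corticosterone replicates 6 and 8 were above all vehicle libraries. Its log2 fold change was 0.09 (SE 0.070, 95% interval -0.06 to 0.24, adjusted p = 0.641 from edgeR), and 0.041 with the trend removed. The ratio of *Hsph1* to *Hspa8* differed by 0.03 on the log2 scale (exact permutation p = 0.486).

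**Figure D3:**
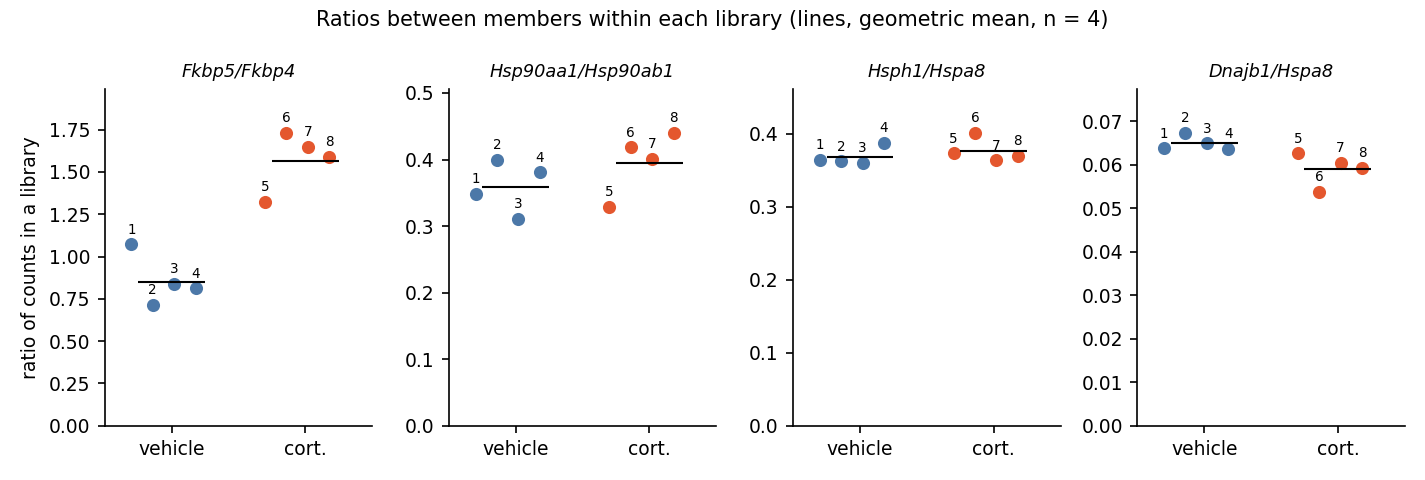
Ratios between counts of 2 of the genes within each library (y axes from 0), for vehicle (blue) and corticosterone (cort., red) libraries, with the replicate number above each point and the geometric mean of 4 as a line. The ratio of *Fkbp5* to *Fkbp4* is 0.714 to 1.07 after vehicle and 1.32 to 1.73 after corticosterone.

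Considered together, 6 of the 9 genes other than *Fkbp5* had a positive and 3 a negative log2 fold change, with a median of 0.04 beside 0.0036 over all genes tested. The signs of *Fkbp4*, *Hsp90aa1*, *Stip1* and *Hsph1* flipped with the share of ambiguous reads in the model, and that of *Hspa8* flipped with the GC and length trend removed. The share of ambiguous reads was itself mostly lower after corticosterone, so a model with it cannot fully separate it from the treatment. The adjusted p values of the 9 genes were 0.546 to 0.950 and the unadjusted ones 0.0746 to 0.852, whereas 9.03% of all genes tested had an unadjusted p under 0.05. Their 95% intervals lay between -0.29 and 0.39 and included 0. With the GC and length trend removed, only that of *Bag1* excluded 0 (0.0087 to 0.25, adjusted p = 0.482 from edgeR). A change in these 9 genes of the size seen in *Fkbp5* was outside every one of these intervals. The spread between vehicle mice was under the median of genes of a like level for 8 of the 10 genes and above it for *Fkbp5* and *Hsp90aa1*.

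**Figure D4:**
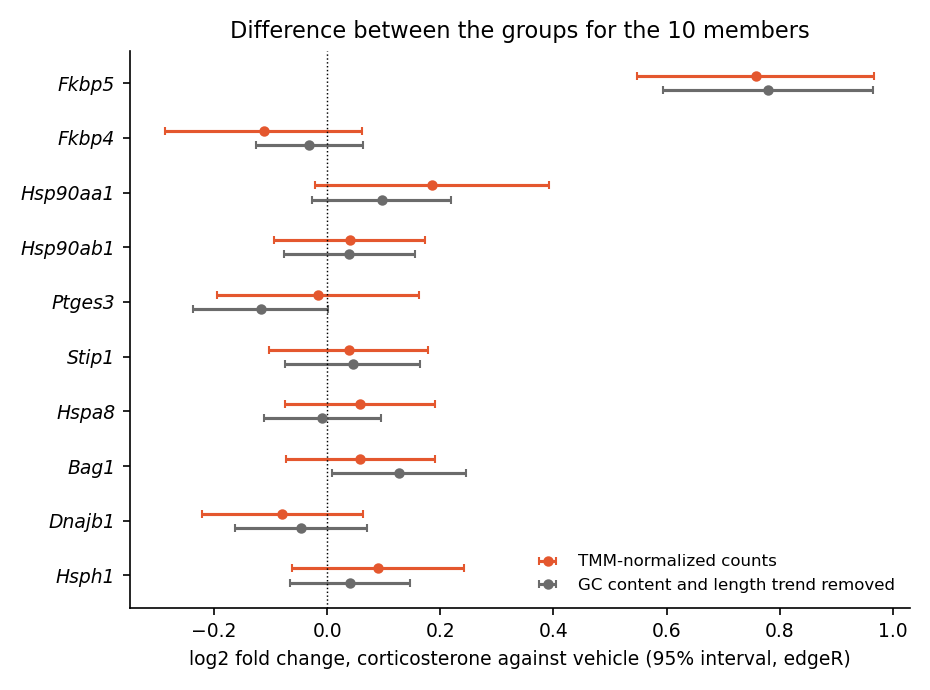
Log2 fold change of corticosterone against vehicle (x axis) with its 95% interval from edgeR for each of the 10 genes (y axis), from TMM-normalized counts (red) and with the GC content and length trend of each library removed (grey). The interval of *Fkbp5* runs from 0.55 to 0.97, and with TMM-normalized counts the intervals of the other 9 genes include 0. With the trend removed, that of *Bag1* runs from 0.0087 to 0.25.

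To compare levels between genes, TMM-normalized CPM values were divided by the length of the merged exons in kilobases. In the vehicle libraries, *Hsp90ab1* was the highest at 721 ± 33.5 (SD, n = 4), followed by *Hspa8* at 234 ± 7.13 and *Hsp90aa1* at 198 ± 16.5. *Stip1* followed at 102, *Bag1* at 68.1, *Hsph1* at 51.0 and *Fkbp4* at 42.7. *Ptges3* at 21.2 and *Dnajb1* at 20.3 overlapped between libraries, and they were the one pair of neighbours in this order that did. *Fkbp5* was the lowest of the 10 at 10.8 ± 1.66 after vehicle, 66.8 times below *Hsp90ab1*. After corticosterone, *Fkbp5* was at 18.3 ± 0.878 (SD, n = 4) and its mean was still the lowest. The order of the 10 means was the same, but 3 pairs of neighbours overlapped between the corticosterone libraries, namely *Fkbp5* and *Dnajb1*, *Dnajb1* and *Ptges3*, and *Hsp90aa1* and *Hspa8*. The place of *Fkbp5* in the order depended on the length used. Its merged exons measure 9468 bases and its longest annotated transcript 3858, and per kilobase of that transcript *Fkbp5* was at 26.5 after vehicle and 44.8 after corticosterone, the 8th and the 7th of the 10. The 10 genes took 0.480% to 0.504% of the reads on genes after vehicle and 0.506% to 0.542% after corticosterone.

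**Figure D5:**
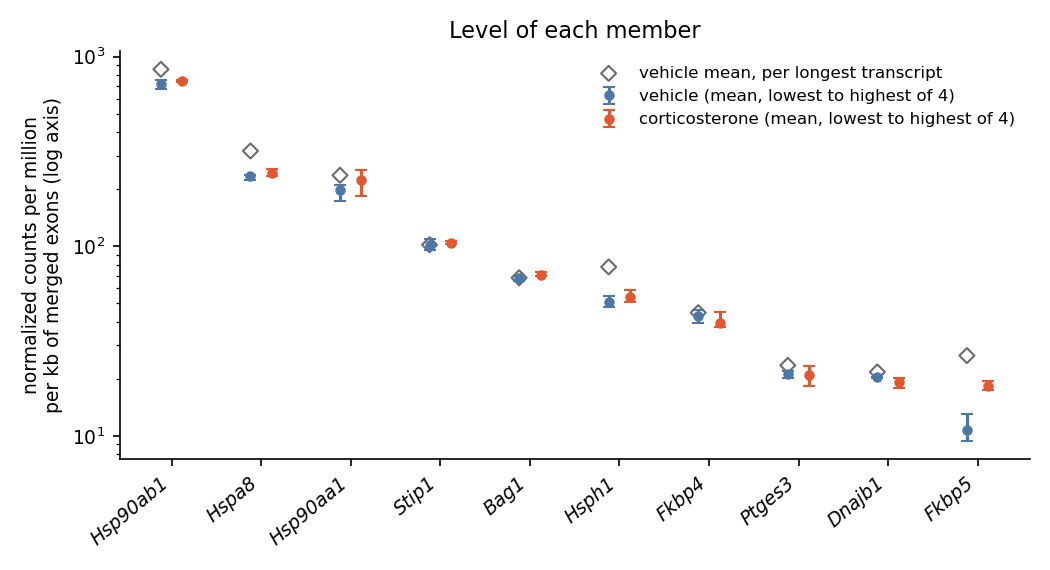
Level of each of the 10 genes in TMM-normalized CPM per kilobase of merged exons (log y axis), as the mean with the lowest and highest of 4 vehicle (blue) and 4 corticosterone (red) libraries, and the vehicle mean per kilobase of the longest transcript (diamonds). *Fkbp5* is the lowest at 10.8 after vehicle and 18.3 after corticosterone, and its diamond lies at 26.5.

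The wider chaperone network was described with lists of 88 further genes, of which 83 were tested. None of the 83 passed the threshold in edgeR or in DESeq2, where 0.406% of all genes with an adjusted p passed it. In edgeR, 3 of the 83 had an unadjusted p under 0.05, beside 9.03% of all genes tested. After corticosterone 43 were higher and 40 lower, and the median of their log2 fold changes was 0.01. Without corticosterone replicate 5, 17 of the 83 passed the threshold in edgeR beside 10.2% of all genes tested, and with the GC and length trend also removed none did, with 209 of all genes tested passing.

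Among the other Hsp90 proteins and cochaperones, 10 of 21 genes were higher and 11 lower, and 14 of 21 were higher with the GC and length trend removed. Their median was -0.01, and 0.07 with the share of ambiguous reads in the model. The smallest p was that of *Cdc37l1*, a relative of the kinase cochaperone *Cdc37*, at a log2 fold change of 0.31 (adjusted p = 0.386 from edgeR). *Cdc37* itself was at -0.16 and *Hsp90b1*, the Hsp90 of the endoplasmic reticulum, at 0.20. With the trend removed, *Cdc37l1*, *Cdc37* and *Hsp90b1* were at 0.20, -0.18 and 0.097. Among the other Hsp70 and Hsp110 proteins and exchange factors, 12 of 21 were higher and 9 lower, with *Bag6* at -0.18, *Hspa13* at 0.14 and *Hspa4* at 0.13, and none had an unadjusted p under 0.05. These were at -0.0010, 0.024 and 0.069 with the trend removed. Among the other J-domain proteins, 14 of 21 were higher and 7 lower, with *Dnajc21* at 0.27, *Dnajb4* at 0.23 and *Dnajb5* at -0.17. With the trend removed, 10 of 21 were higher, *Dnajc21*, *Dnajb4* and *Dnajb5* were at 0.16, 0.12 and -0.11, and the median of the J-domain list went from 0.08 to -0.0089.

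The other FK506-binding proteins, the family to which *Fkbp5* and *Fkbp4* belong, had 3 of 9 genes higher and 6 lower, with *Fkbp2* at -0.20, *Fkbp3* at 0.19 and *Fkbp1b* at -0.21, and none had an unadjusted p under 0.05. With the GC and length trend removed, 6 of 9 were higher, the median went from -0.04 to 0.02, and *Fkbp2*, *Fkbp3* and *Fkbp1b* were at 0.015, 0.032 and -0.15. Without removal of the trend, the median ran from -0.11 (without corticosterone replicate 5) to -0.013 (without corticosterone replicate 7) when 1 library was left out. *Fkbp6* and *Fkbp11* did not pass the filter on low counts. Of the other heat shock genes, 10 of 19 were higher and 9 lower. *Hsf2*, a heat shock transcription factor, had the smallest p of these at a log2 fold change of 0.29 (adjusted p = 0.517 from edgeR), and it was at 0.12 with the trend removed. The cold-inducible RNA-binding protein genes *Cirbp* and *Rbm3*, which respond to temperature in the opposite direction to heat shock genes, had log2 fold changes of -0.21 (adjusted p = 0.597 from edgeR) and -0.07 (adjusted p = 0.771), and of -0.16 and -0.17 with the trend removed. The median of these genes was -0.14, and it turned to 0.15 with the share of ambiguous reads in the model.

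The receptors that these chaperones fold are encoded by *Nr3c1* (GR) and *Nr3c2* (MR). *Nr3c1* went from 1489 ± 273 normalized counts (SD, n = 4) in vehicle mice to 1286 ± 90.0 in corticosterone-treated mice, a log2 fold change of -0.21 (adjusted p = 0.546 from edgeR). *Nr3c2* went from 3858 ± 459 to 3288 ± 213 in the same mice, a log2 fold change of -0.23 (adjusted p = 0.512 from edgeR). With the trend removed, the values were -0.31 (adjusted p = 0.233) and -0.29 (adjusted p = 0.149), so neither receptor passed the threshold.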

How the data were processed

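The authors used GSnap to align paired reads of stranded mRNA libraries to mm10 and HTSeq-count to count them, and deposited raw counts of 50686 genes in 8 libraries, with 5 summary rows that were left out of all totals. The annotation release and the strand setting of the counting are not given in the sources used here. Symbols, lengths and GC content came from GENCODE M21 (GRCm38), which held 50376 of the identifiers. Every column of the table was assigned to a sample, and no sample was left out.

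Counts were normalized with TMM and tested with the quasi-likelihood test of edgeR 4.0.16 (R 4.3.3) after filterByExpr, with Benjamini-Hochberg adjustment over 16018 genes. The authors used DESeq2; DESeq2 1.42.0 and limma-voom (limma 3.58.1) were run as alternatives. A prior count of 2 was added before taking log2. Single values and ratios were compared by exact permutation of the 70 assignments, two-sided. The GC content and length trend was removed from each library by splines with 5 degrees of freedom entered as offsets. The scripts were first checked on simulated counts in which 200 genes were changed. Each library was counted as 1 mouse after the methods, and no pair of libraries agreed within sampling noise (lowest chi-square per degree of freedom 3.37), as a library deposited again would.

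The 10 genes and the lists were chosen with earlier results of these data known. The genes named from the lists are the 3 with the smallest unadjusted p in each, the receptor genes, *Cirbp*, *Rbm3* and the genes most like *Fkbp5* or like the mean of *Hsp90aa1*, *Hsph1* and *Dnajb1*. The alternatives were other tools, scalings and filters, robust dispersion, removal of the GC and length trend, a covariate for the share of ambiguous reads, other prior counts, another gene length and leaving out each library. Those that removed the trend and left out a library, and the ratios with the trend removed, were added after seeing the data.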

Additional observations from a re-analysis of the deposited data

Results flagged for a closer look

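Of 34 sets of 4 values examined, 5 had 1 library far from the other 3 by Dixon's criterion, where chance flags about 1 in 20. *Fkbp4* was at 2405 normalized counts in corticosterone replicate 5 and at 1997 to 2038 in the other corticosterone libraries. The ratio of *Hsph1* to *Hspa8* was 0.388 in vehicle replicate 4 and 0.361 to 0.365 in the other vehicle libraries. The share of ambiguous reads was 1.40% in vehicle replicate 4, with 1.64% to 1.67% in the others of its group, and 1.48% in corticosterone replicate 5, with 1.25% to 1.28% in the others. The GC trend of corticosterone replicate 5 was 0.199 on the log2 scale per 10 percentage points, with -0.183 to -0.130 in the other corticosterone libraries. Both libraries named for their ambiguous reads are those whose GC trend has the other sign than the rest of their group.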

How the results depend on the processing

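*Fkbp5* was higher after corticosterone under each of the 9 other settings of the fit (log2 fold change 0.76 to 0.86) and passed the threshold in 8 of them, with an adjusted p of 1.37e-08 in DESeq2. With at least 10 counts in every library, 0 of 14870 genes and 0 of the 10 genes described passed in edgeR (adjusted p = 0.0530 for *Fkbp5*), and 1330 genes had an unadjusted p under 0.05. The number of genes past the threshold over the whole table was 64 with DESeq2, 79 with no filter on low counts, 22 with the GC and length trend removed and 38 with a covariate for the share of ambiguous reads. Leaving out 1 library gave 0 to 1651 genes, 1651 of them without corticosterone replicate 5 and 19 without vehicle replicate 1, and 1 to 209 with the trend also removed (128 and 9 without vehicle replicates 1 and 2, 11 without vehicle replicate 4, 209 and 7 without corticosterone replicates 5 and 8). Of the 10 genes, 0 to 2 passed when 1 library was left out, and of the 83 genes of the further lists 0 to 17.

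With that covariate, the log2 fold changes were 0.13 (SE 0.087) for *Fkbp4*, -0.10 (SE 0.115) for *Hsp90aa1*, -0.019 (SE 0.090) for *Stip1* and -0.025 (SE 0.094) for *Hsph1*. These are opposite in sign to the values given above. With the GC and length trend removed, *Hspa8* was at -0.0085, and at -0.027 to 0.012 with 1 library also left out (-0.0012, -0.027 and -0.017 without vehicle replicates 1, 2 and 4, and -0.026, -0.0038 and -0.013 without corticosterone replicates 5, 6 and 8), and *Hsp90ab1* ranged from -0.0029 to 0.057 when 1 library was left out as well. *Ptges3* ranged from -0.073 to 0.045 when 1 library was left out, and was at 0.0045 without vehicle replicate 2. When 1 library was left out, the log2 fold changes without removal of the trend were 0.12 to 0.27 for *Hsp90aa1*, -0.18 to -0.073 for *Fkbp4*, 0.0055 to 0.071 for *Stip1*, 0.033 to 0.073 for *Hspa8*, 0.0091 to 0.058 for *Hsp90ab1*, 0.037 to 0.070 for *Bag1*, -0.11 to -0.045 for *Dnajb1* and 0.050 to 0.12 for *Hsph1*, and of these only *Hsp90aa1*, without corticosterone replicate 5, passed the threshold. The causes were not tested. Per kilobase of the longest transcript, 5 of the 10 genes kept their place in the order of levels. No paired analysis was possible because the replicate numbers 1 to 4 and 5 to 8 are not shared between the groups.

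With 4 mice a group, the intervals of the 9 genes that did not pass leave room for changes up to 0.39 on the log2 scale in *Hsp90aa1* and down to -0.29 in *Fkbp4*. Counting error alone, from the mean count per vehicle library, was 3.301% for *Ptges3*, 2.36% for *Bag1* and 2.81% for *Dnajb1*, beside a spread between vehicle mice of 4.14%, 2.58% and 0.755%, so for these genes the depth limits the precision as well.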

Other observations

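The genes whose log2 normalized counts over the 8 libraries were most like those of *Fkbp5* were *Cklf* (Pearson's r 0.980), *Gm45187* (0.969), *Ing3* (0.968), *Gm11549* (0.964) and *Usp54* (0.962). These values describe 8 libraries in 2 treatment groups and include the difference between the groups. *Cklf* had a log2 fold change of 0.66 (adjusted p = 0.290 from edgeR), and *Usp54* one of 0.35 (adjusted p = 0.250). Within the groups, with the group means removed, the genes most like the mean of *Hsp90aa1*, *Hsph1* and *Dnajb1* were *Kbtbd3* (r 0.987), *Gm6145* (0.984), *Gm43096* (0.981), *Cog6* (0.981) and *Gdpd1* (0.9805). Both sets of r values are the highest found among all genes tested. The averaged genes did not move together, with r 0.455 for *Hsp90aa1* and *Hsph1*, -0.190 for *Hsp90aa1* and *Dnajb1* and -0.355 for *Dnajb1* and *Hsph1*. Among the 10 genes themselves, the pair most alike within the groups was *Hsp90aa1* and *Ptges3* (r 0.930 over 8 libraries), and this value was 0.538 with the GC and length trend removed. With the trend removed, the pair most alike was *Hsp90aa1* and *Stip1* (0.775). The pair most opposed was *Fkbp4* and *Hsp90aa1* (-0.761), and with the trend removed *Fkbp4* and *Hsp90ab1* (-0.877). These correlations share the libraries and their GC trends, and they are given as a description with no test.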
